A study of Mus musculus with 6 samples.

Results

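Cytosolic ribosomal protein genes encode the proteins of the large (Rpl and P-stalk genes) and small (Rps genes) subunits of the ribosome that translates messenger RNA. They were chosen by name: every probe set of the array whose single gene symbol starts with Rpl or Rps and a number, or is Rplp0, Rplp1, Rplp2 or Rpsa, without pseudogene symbols and without the Rps6k kinases. The rule took 49 of 12488 probe sets, which stand for 35 genes, 17 of the large and 18 of the small subunit. No probe set with the single symbol Rplp1 or Rplp2 was among them. RNA came from exudate cells of the mouse peritoneum, named peritoneal macrophages elsewhere in the labels, all of strain C57BL/6. The 3 genotypes had 1 Affymetrix array each per state: wild type (WT), NF-IL6 knockout (KO), and the knock-in called KI(LAP) in the labels (KI). NF-IL6 is another name of the transcription factor C/EBPβ, whose gene is Cebpb, and LAP is its activating form. The states were untreated and stimulated with LPS, a bacterial cell wall component, together with interferon-γ, for 12 h in the KO and KI cells and for a time that the labels do not give in the WT cells. No group had a replicate, so the number of arrays limits how precise each value is, and single animals or pools behind an array are not told apart by the labels. Age was not given, nor how the knockout and knock-in alleles were built.

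Ribosomal proteins are made in matched amounts, and their messenger RNAs are among the most abundant of a cell. Many of these messages begin with a 5′ terminal oligopyrimidine tract, or TOP, a C followed by further pyrimidines at the first transcribed base, through which mTOR and the RNA-binding protein LARP1 control how well they are translated. In activated macrophages, some members are also known for roles off the ribosome, such as that of Rpl13a in the interferon-γ-activated inhibitor of translation complex.

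The starts of the genes are shown first, because the tract is the sequence feature for which this family is best known. RefSeq promoter windows of build GRCm38.p6 were available for 28 of the 35 genes. Rpl7, Rpl8, Rpl32, Rps4l, Rps14, Rps20 and Rps29 were not matched. Each line below gives 15 bases before the annotated start and 15 from the start on, 5′ to 3′ on the gene's strand. Capitals mark a single stretch per window of a C and at least 4 further C or T. It is the longest with its first C within 5 bases of the start, otherwise the longest in the window. Other such stretches, as in Rps18, Rps27 and Rps7, stay in lower case. First come 6 genes with a stretch whose first marked C lies within 5 bases of the start. It can be part of a longer run, as in Rpl7a, where pyrimidines go on further upstream.
Rps18, chr17:33955651-33955680, minus strand: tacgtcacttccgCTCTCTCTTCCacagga
Rps10, chr17:27635230-27635259, minus strand: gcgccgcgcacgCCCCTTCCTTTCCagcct
Rps27, chr3:90213634-90213663, minus strand: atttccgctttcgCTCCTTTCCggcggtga
Rpl7a, chr2:26910792-26910821, plus strand: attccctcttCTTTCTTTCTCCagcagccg
Rps24, chr14:24490663-24490692, plus strand: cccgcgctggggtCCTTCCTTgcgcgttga
Rpl13a, chr7:45128731-45128760, minus strand: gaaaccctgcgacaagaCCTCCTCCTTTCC
The 4 genes that fell past the test after stimulation, described below, had no such stretch within 5 bases of the annotated start. Rps28 had none in its window, and Rps7 had a further one, in lower case, after its start.
Rpl10a, chr17:28328456-28328485, plus strand: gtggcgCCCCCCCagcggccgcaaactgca
Rps7, chr12:28635939-28635968, minus strand: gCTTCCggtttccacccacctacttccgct
Rpl6, chr5:121204486-121204515, plus strand: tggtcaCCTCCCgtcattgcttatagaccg
Rps28, chr17:33824548-33824577, minus strand: ggtaccgcgtgcggtctcgcgagagcgaaa

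Such a stretch, read from a C within 5 bases of the annotated start and not required to be the first base of its run, was found in 10 of 28 member promoters, or 35.7%, and in 18.5% of all 27025 promoters. Within 15 bases, a range added after the windows were seen, the shares were 60.7% and 40.9%. RefSeq starts can lie some bases from the first base used in a given cell. On both strands of the whole 300-base promoter, CCGGAAG, the core bound by ETS factors such as GABP, stood in 12 of 28 member promoters (42.9%) against 9.11% of all promoters. AAGATGGC, the core of the YY1 motif, stood in 5 (17.9%) against 2.87%. CACGTG, the E-box bound by MYC, stood in 2 (7.1%) against 7.23%, and TTNNGCAA, a loose form of the C/EBP motif, in 2 (7.1%) against 10.8%. The member share was therefore above that of all promoters for the ETS and YY1 motifs. For the E-box and the C/EBP motif it rested on 2 promoters each, too few to be read as a difference from all promoters. These are matches of letters, not sites shown to be bound. CCGGAAG and AAGATGGC can overlap by the letters AAG. The ETS core lay near the start of several genes described below, shown here with 11 bases on either side and with the core in capitals. It reads CTTCCGG where it lies on the other strand. In Rps7 this core holds the same letters as the pyrimidine stretch marked above, so they are not separate features.
Rpl6, chr5:121204502-121204530, plus strand: ttgcttatagaCCGGAAGccgctgcctta
Rps7, chr12:28635950-28635978, minus strand: tttcagaagagCTTCCGGtttccacccac
Rps3a1, chr3:86142660-86142688, minus strand: gattcttaaagCCGGAAGggcgaaagagc
Rpl19, chr11:98026660-98026688, plus strand: acttagcgtgaCTTCCGGctacccagagg

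Across the series, the Cebpb signals before and after stimulation were 5492 and 9329 in WT, 12.7 and 59.0 in KO, and 2284 and 5890 in KI cells, and all 10 interferon and LPS response genes of a control list rose. All 11 macrophage markers on the list were above the floor on at least 1 array, of which Adgre1 and Fcgr1 rose and Cd68 and Mrc1 fell, and Cd68, a lysosomal macrophage protein, had signals from 9610 to 19427. Of the T cell receptor complex genes, Cd3d, Cd3e and Cd3g stayed under the floor, a signal of 98.0 under which values were not ordered, on every array, and Cd247 was above it on the 2 WT arrays (122 and 101). The share of all probe sets above that floor was highest on the untreated WT array (65.8%) and lowest on the stimulated KI array (55.7%). Signals at the 3′ end of Gapdh were 0.842 to 1.04 times those at the 5′ end.

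The members' mean signals fell into 2 groups with none in between. Averaged over the 6 arrays on the log2 scale, 23 probe sets of 21 genes had a mean signal of at least 889, and every other member had at most 273. The 23 are called bright here and were separated by the 75th percentile of all signals, 531.8, a choice made after the signals had been seen. They were above the floor on all 6 arrays, with signals from 729 to 32962. Of the 26 others, 20 were above the floor on at least 1 array and 6 on none, the latter being 1 probe set each of Rpl32, Rps15, Rps27l and Rps29 and 2 of Rps4x. The same gene could be on both sides: one Rpl19 probe set ran from 12327 to 15863 and the other from 34.5 to 162. Rps4x, an X-linked protein of the small subunit, had 5 probe sets, of which 1 was bright. Of 9 probe sets with the suffix _r_at, for which Affymetrix dropped some probe selection rules, 1 was bright, against 18 of 34 without a letter suffix. For 14 genes, among them Rpl22, Rpl35a, Rpl38, Rpl39, Rps13, Rps14, Rps15, Rps20 and Rps29, no bright probe set with a single symbol was on the array. Most ribosomal protein genes have near-identical pseudogene copies that probes can share, so each value is that of a probe set and may hold more than 1 transcript.

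After stimulation the bright members were lower in sum in all 3 genotypes. Their summed signal went in WT from 322863 to 230792, in KO cells from 278363 to 214959 and in KI cells from 283024 to 219458. As a share of the summed signal of all probe sets that are not controls, this was 3.46% and 2.52% in WT, 3.10% and 2.38% in KO, and 3.06% and 2.40% in KI cells. The 3 untreated arrays were thus all above the 3 stimulated ones. Multiplying a whole array by a single factor does not change this share, but quantile normalization can. The share also moves with every other probe set. In these bulk samples, fewer cells of a type that is rich in ribosomal protein messages and less of those messages per cell cannot be told apart.

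Of the 23 bright members, 21 were lower after stimulation in each of the 3 genotypes. Of all 3076 probe sets above the same cutoff, called all bright probe sets, 37.5% were. This background was not matched in signal to the members, whose median signal per array was 10120 to 15765. The remaining 2 were Rpl13a and Rpl37a, which were lower in WT and KO but not in KI cells. The median log2 change of the bright members was -0.62 in WT, -0.41 in KO and -0.37 in KI cells, against -0.07, -0.12 and -0.11 for all bright probe sets. A decline of at least 0.5 on the log2 scale was seen for 13 of 23 in WT (26.8% of all bright probe sets), 8 in KO (26.8%) and 6 in KI cells (25.8%), so that by this size the KI count was near the background. Centring each array on its median moved the bright background up to 0.11, 0.07 and 0.05 and left member medians of -0.44, -0.22 and -0.20, with 17 of 23 lower in every genotype. The shift was small beside that of the control list of inflammatory genes, whose median log2 change was 5.26. With the scaling used here all 23 bright members had a negative mean change over the genotypes. With median centring 20 did, and with quantile normalization 22.

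**Figure D1:**
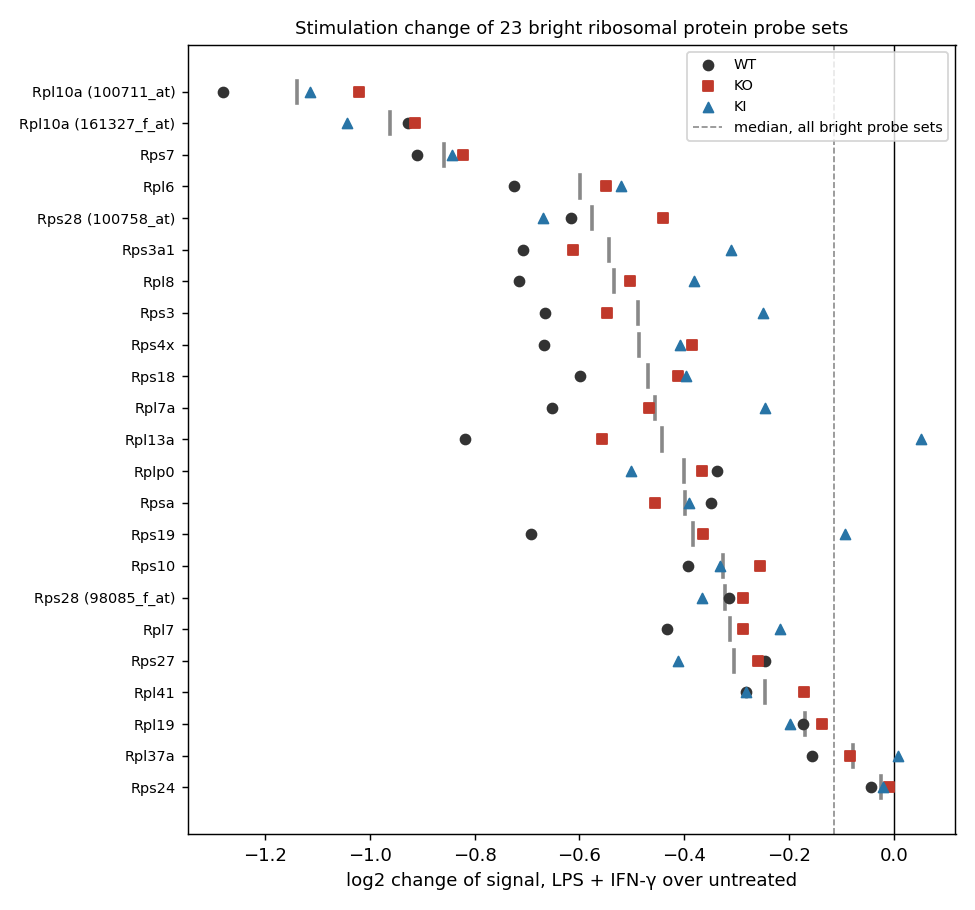
Log2 change of signal after LPS with interferon-γ (x axis) for the 23 bright ribosomal protein probe sets (y axis, ordered by the mean), with 1 point per genotype, a grey bar at the mean of the 3 and a dashed line at the median of all bright probe sets (-0.11). Rpl10a and Rps7 lie farthest to the left and Rps24 nearest to 0, and only the KI points of Rpl13a and Rpl37a lie above 0.

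Single members were tested in a fit to the 6 arrays in which genotype was a block, adjusted over all 9344 probe sets above the floor on at least 1 array. Its error is the variation of the response between the genotypes, not between animals or cultures. Of 43 member probe sets in this test, 5 fell, or 11.6%, beside 6.01% of all probe sets, and 0 rose, beside 5.03%. All 5 were bright, where the background of falls was 11.7% and the members' share 21.7% of 23. At an unadjusted p under 0.05, 18 members (41.9%) were lower and none higher, while 27.2% of all probe sets were under that p in either direction. Among bright probe sets these shares were 69.6% of the members and 45.6% of all. The 5 probe sets belonged to 4 genes: Rpl10a with both of its probe sets, Rps7, Rpl6 and Rps28. No member passed when any single array, or both arrays of any genotype, were left out, when at most 15 of the 9344 probe sets passed, and all 23 bright members had a negative mean change in each of those fits.

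Rpl10a, which forms the mobile L1 stalk of the large subunit, showed the largest decline. Its probe set 100711_at had signals of 8139, 7757 and 7802 in untreated WT, KO and KI cells and of 3352, 3824 and 3604 in stimulated ones. The untreated signals were close together and every stimulated one lay far below all of them. The mean log2 change was -1.14 (SE 0.12, limma adjusted p = 0.00802), a 2.20-fold decline. The second probe set, 161327_f_at, went in WT from 4570 to 2401, in KO cells from 6444 to 3422 and in KI cells from 5852 to 2841 (mean log2 -0.96, SE 0.11, adjusted p = 0.0107 by limma). Both probe sets therefore gave the same direction and a like size, and untreated and stimulated signals did not overlap in either.

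Rps7, a protein of the small subunit body that can also bind MDM2, had signals of 15761, 13512 and 13116 in untreated and 8393, 7646 and 7315 in stimulated WT, KO and KI cells. All 3 genotypes declined by nearly the same size (mean log2 -0.86, SE 0.11, adjusted p = 0.0139 by limma). Rpl6, a protein of the large subunit, went in WT from 12296 to 7438, in KO cells from 10538 to 7203 and in KI cells from 11501 to 8022 (log2 -0.60, SE 0.12, adjusted p = 0.0381 by limma). Rps28, which lies near the mRNA exit of the small subunit, went from 17536 to 11443, from 14244 to 10490 and from 16380 to 10299 in WT, KO and KI cells on probe set 100758_at (log2 -0.58, SE 0.12, adjusted p = 0.0441 by limma). Its probe set 98085_f_at did not pass (log2 -0.32, SE 0.12, adjusted p = 0.157 by limma). Its dim probe set stayed between 40.4 and 146. The calls of Rpl6 and Rps28 ended under median centring, a lower floor and a fit without the intensity trend, while Rpl10a and Rps7 kept theirs under those 3 settings. Without the filter on low signals no member passed in limma, and 16 had an unadjusted p under 0.05.

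**Figure D2:**
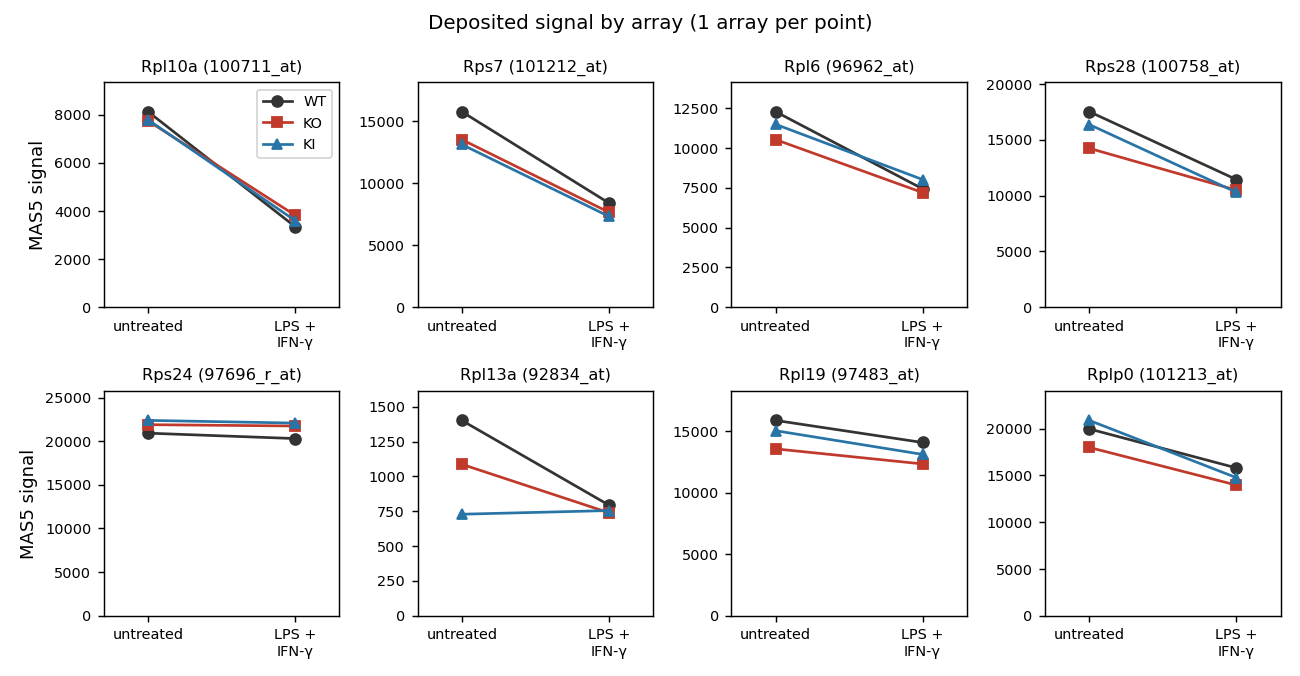
Deposited MAS5 signal (y axis, from 0) of 8 ribosomal protein probe sets on the untreated and stimulated arrays (x axis), with 1 array per point and lines joining the arrays of a genotype. The Rpl10a signal drops by more than 1 log2 unit in every genotype, the Rps24 signal is nearly level, and the 3 genotypes of Rpl13a are spread out before stimulation and close together after it.

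At the other end of the bright members, 3 stayed near their untreated signals. Rps24, a small-subunit protein, had 20921, 21894 and 22384 in untreated and 20302, 21742 and 22076 in stimulated WT, KO and KI cells (mean log2 -0.02, SE 0.12, adjusted p = 0.911 by limma). This is the bright _r_at probe set. Rpl37a, a zinc-binding protein of the large subunit, was at 5863, 4654 and 4403 before and 5257, 4390 and 4425 after stimulation (log2 -0.08, SE 0.11, adjusted p = 0.683 by limma). Rpl19, whose bright probe set went in WT from 15863 to 14068, in KO cells from 13553 to 12327 and in KI cells from 15027 to 13101, had a change of -0.17 (SE 0.11, limma adjusted p = 0.401). Rpl41, the smallest ribosomal protein, was next with -0.25. Across the 23 bright members, brighter probe sets tended only weakly to change less (Pearson r = 0.17 and Spearman rho = 0.24 between mean signal and mean change), which is a description over probe sets of the same 6 arrays.

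The remaining bright members lay between these ends and did not pass the test. Rplp0, the base of the P stalk that recruits translation factors, had 19975, 17999 and 20888 in untreated and 15809, 13970 and 14765 in stimulated cells (mean log2 -0.40, SE 0.12, adjusted p = 0.103 by limma). Rpsa, the small-subunit protein also described as a laminin receptor, went from 4681 to 3678, from 4026 to 2935 and from 4537 to 3461 in WT, KO and KI cells (log2 -0.40, SE 0.11, adjusted p = 0.0861 by limma). For both genes every stimulated signal was below every untreated one. Rps3, at the mRNA entry and also known to bind NF-κB p65, went in WT from 14357 to 9048, in KO cells from 11639 to 7959 and in KI cells from 9947 to 8368 (log2 -0.49, SE 0.13, adjusted p = 0.087 by limma). Rps3a1, picked after its values were seen, and Rpl8 had mean changes of -0.54 and -0.53 with limma adjusted p of 0.0682 and 0.0617. Subunits did not stand apart: the median of the mean changes was -0.44 over 11 bright probe sets of the large and -0.43 over 12 of the small subunit, and their quartiles overlapped (-0.57 to -0.28 and -0.50 to -0.33).

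The size of the change was read against the start sequences for the 19 bright genes with a promoter window. The 7 with a pyrimidine stretch within 5 bases of the start had a median change of -0.33 (range -0.47 to -0.02) and the 12 without one -0.44 (range -1.14 to -0.08). With the ETS core in the promoter, 8 genes had a median of -0.43, and without it 11 had -0.40. The 4 genes that fell past the test were among the 12 without the stretch within 5 bases. By the same rule, 18.5% of all promoters carried it. Within 15 bases, Rpl10a, Rpl6 and Rps7 did have such a stretch. The ranges of the groups overlapped for both features.

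Rpl13a is the large-subunit protein that interferon-γ can release from the ribosome to silence inflammatory messages. Like Rpl37a, it was not lower in KI cells after stimulation (log2 change 0.007 for Rpl37a and 0.051 for Rpl13a). Its signal went in WT from 1402 to 794, in KO cells from 1087 to 740 and in KI cells from 729 to 755. The 3 stimulated signals were alike, and the untreated ones were spread 1.92-fold from KI to WT. The mean log2 change was -0.44 and did not pass (SE 0.21, limma adjusted p = 0.264). Rps19, a small-subunit protein mutated in Diamond-Blackfan anaemia, showed a similar picture with 9299, 6590 and 6002 in untreated and 5757, 5120 and 5628 in stimulated WT, KO and KI cells (log2 -0.38, SE 0.15, adjusted p = 0.189 by limma). In both genes WT was highest before stimulation and the genotypes drew together after it. Neither trait was particular to them. Untreated WT was above KO for 21 and above KI for 20 of the 23 bright members. Over all bright probe sets, the standard deviation of the log2 difference from WT also narrowed with stimulation. It went from 0.75 to 0.47 for KI and from 0.54 to 0.48 for KO.

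The bright members as a group were also compared between genotypes. In untreated cells 21 of 23 were lower in KO than in WT (49.8% of all bright probe sets) and 20 lower in KI than in WT (49.7%), with median log2 differences of -0.22 and -0.20. In stimulated cells 18 were lower in KO (49.6%) and 16 lower in KI (46.8%), with medians of -0.13 and -0.09. The KO and KI comparisons share the WT array of each state, so they are not separate evidence. The decline with stimulation was smaller in KO than in WT for 20 of 23 (49.1% of all bright probe sets had a higher change in KO) and smaller in KI than in WT for 16 (49.4%). These counts of smaller declines follow from the genotype differences within each state, on the same arrays, and are not separate evidence. The labels give no stimulation time for WT, so genotype and time cannot be told apart in stimulated cells or in these declines. None of these differences has a test, since each rests on single arrays. Median centring turned the KI medians to 0.13 in untreated and 0.23 in stimulated cells, so that the sign of the KI difference depended on the scaling, while that of KO against WT in untreated cells stayed negative under each scaling tried. The medians were not nearer to 0 after stimulation under every scaling: with quantile normalization KO minus WT was -0.08 untreated and -0.10 stimulated. Among the 30 bright probe sets with several symbols described below, the decline was smaller in KO than in WT for 18 and smaller in KI than in WT for 24.

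**Figure D3:**
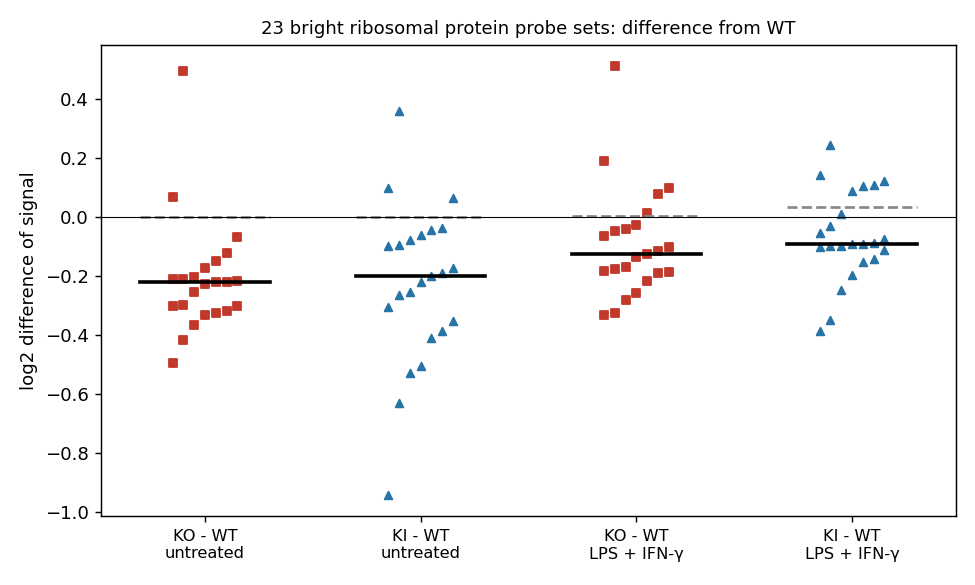
Log2 difference of signal from WT (y axis) for the 23 bright ribosomal protein probe sets in KO (squares) and KI (triangles) cells, untreated and stimulated (x axis), with a black line at their median and a dashed grey line at the median of all bright probe sets. The medians run from -0.22 to -0.09, the highest KO point in each state is the Rpl10a probe set 161327_f_at, and the lowest KI point is Rpl13a in untreated cells.

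In the fit over both states no member passed for any pair of genotypes, KO against WT (0% of all probe sets called), KI against WT (0.0107%) or KI against KO (0%) with limma, and 5 members (11.6%) had an unadjusted p under 0.05 in each of the 3, beside 10.1%, 17.1% and 7.52% of all probe sets. Without the stimulated WT array, 5 members passed for KO against WT and the same number for KI against WT, in fits where 498 and 539 of all probe sets passed. These were dim probe sets of Rps4x, Rps20 and Rpl7 and both of Rpl38, all at or near the floor in KO and KI cells. Rpl10a 161327_f_at was the only bright member with an unadjusted p under 0.05, for KO against WT (log2 difference 0.50, SE 0.13, limma adjusted p = 0.432). The other Rpl10a probe set differed by 0.06.

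No gene with only dim probe sets passed. Rps4l, a relative of Rps4x that the rule takes by its symbol and that RefSeq lists as a transcribed pseudogene, had signals of 335, 168 and 52.1 in untreated and 236, 175 and 59.5 in stimulated WT, KO and KI cells on probe set 98148_at. On 98149_s_at it had 481, 368 and 161 before and 214, 397 and 172 after stimulation. On both, KI was lowest in each state (KI against WT over both states -1.52, SE 0.28, limma adjusted p = 0.224, and -0.95, adjusted p = 0.342). Rpl7l1, a relative of Rpl7, was at 75 in untreated WT and at 223 and 209 in untreated KO and KI cells, and at 138, 156 and 233 after stimulation. Rpl39l, a paralogue known from the testis, stayed between 39.5 and 121, and Rps27l, a paralogue of Rps27 that p53 can induce, stayed under the floor on all arrays, with signals from 9.4 to 79.9. Rpl22, a large-subunit protein that is not needed in most cells, had 265, 302 and 334 before and 186, 132 and 202 after stimulation on one probe set (mean log2 -0.81, SE 0.26, adjusted p = 0.125 by limma), and 351, 303 and 215 before and 337, 223 and 200 after on the other (log2 -0.20, SE 0.24, adjusted p = 0.631 by limma). Rps29 probe set 98523_at had untreated signals of 98.1, 279 and 222 and stimulated ones of 490, 342 and 196 in WT, KO and KI cells (log2 0.81, SE 0.53, adjusted p = 0.399 by limma). No dim member passed for stimulation, and their median change was -0.11.

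Probe sets outside the rule that name a ribosomal protein gene among several symbols were read beside the members. On the array 39 more probe sets carry several symbols of which at least 1 is a ribosomal protein gene, and none is named here. Of these, 36 were tested and 7 fell (19.4%), beside 6.01% of all probe sets. All 7 were bright, 23.3% of the 30 bright ones, beside 11.7% of all bright probe sets. The 30 bright ones had a median mean change of -0.43, all 30 were below 0, and their medians were -0.51, -0.46 and -0.36 in WT, KO and KI cells, close to those of the members. They come from the same 6 arrays, their other symbols can be of other genes, and a ribosomal protein symbol among them can be that of a member. They are therefore not separate evidence.

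Other genes of ribosome production and translation were taken from lists, 1 probe set per gene. Of 60 measured mitochondrial ribosomal protein genes, whose products form a separate ribosome, 2 fell, Mrpl4 and Mrps24, and 1 rose, Mrpl52 (median -0.30). Of 24 other genes with TOP messages 0 passed the limma test (11 with an unadjusted p under 0.05, median -0.30), among them Eef1a1, the elongation factor that brings aminoacyl-tRNA, with a log2 change of -0.23, and Tpt1 with -0.25, both picked after their values were seen. Of 48 ribosome biogenesis genes 1 rose, Eif6, which keeps free large subunits apart, in WT from 1720 to 3087, in KO cells from 972 to 2204 and in KI cells from 1495 to 3230 (log2 1.05, SE 0.13, adjusted p = 0.0133 by limma), and 1 fell, Imp3 (-0.86); the median was -0.08. Of 18 genes of RNA polymerase I 0 passed in limma (3 with an unadjusted p under 0.05, median -0.16). Among 26 genes that signal growth to ribosomes, Larp1, which binds TOP messages, and Eif4ebp1, the inhibitor of the cap-binding protein, rose (2.05, SE 0.39, limma adjusted p = 0.0383, and 0.97, SE 0.20, limma adjusted p = 0.0432). Larp1 had 231, 759 and 1489 in untreated WT, KO and KI cells and 2069, 2780 and 3235 in stimulated ones. Akt1, Rragc and Lamtor2, parts of the input to mTOR, fell by 0.88, 0.74 and 0.67 on the log2 scale. Mdm2, which ribosomal proteins can bind, and Cdkn1a, the p53 target p21, rose by 1.80 and 1.68, while Gadd45a and Sesn1 fell (log2 -2.43 and -3.26). Of 3 tested genes listed with the inhibitor complex that holds Rpl13a (Eprs, Syncrip and Dapk3), 0 passed in limma and 0 had an unadjusted p under 0.05. Gapdh, also on that list, was not tested.

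**Figure D4:**
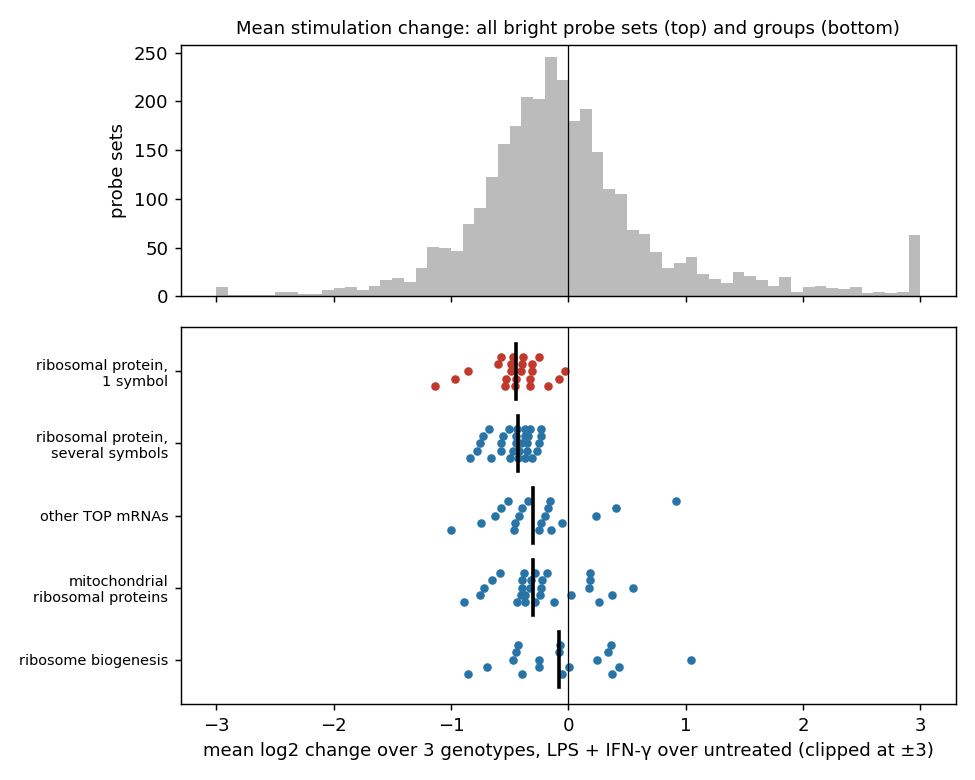
Mean log2 change after stimulation over the 3 genotypes (x axis, clipped at 3 in either direction), as a histogram of all 3076 bright probe sets (top) and as points for bright ribosomal protein probe sets with 1 symbol or several and for bright genes of 3 lists (bottom), with a black line at each median. All 23 and all 30 ribosomal protein points lie below 0, with medians of -0.44 and -0.43, against -0.30 for other TOP messages and for mitochondrial ribosomal proteins and -0.08 for ribosome biogenesis.

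Markers of lymphocytes, B cells being present in the peritoneum, were read beside these shifts. The median log2 change of the 8 tested B cell markers was -0.75 in WT, -1.0 in KO and 0.07 in KI cells. The summed signal of 11 B cell markers was 10195, 10040 and 6606 in untreated WT, KO and KI cells and 6176 to 6461 in stimulated ones, with Cr2, Fcer2a and Vpreb3 under the floor throughout. Much of the sum came from Blnk, at 2789, 3539 and 4261 before and 2252, 3211 and 4263 after stimulation. Several markers were lower in untreated KI than in untreated WT and KO cells. Cd79a was at 1152, 1129 and 152, Cd79b at 1157, 890 and 128, and Ighm at 3232, 2633 and 789 in WT, KO and KI. Ms4a1, Pax5 and Blk were also lowest in untreated KI cells, whereas Cd22, like Blnk, was highest there (278, 361 and 552). Ms4a1, which encodes CD20, fell (log2 -1.53, SE 0.23, adjusted p = 0.0219 by limma). The sum over 12 T cell markers was 4660 to 7134 in untreated and 3497 to 4226 in stimulated cells, most of it from Il7r, and 7 of 12 were under the floor on every array, while Cd4, Cd28, Zap70, Cd247 and Il7r were above it on at least 1. Proliferation genes summed to 8794, 14464 and 12427 before and 7811, 6988 and 9629 after stimulation. The probe set for the 3′ part of mouse 18S ribosomal RNA, counted among the array's controls, was at 847 and 872 on the untreated WT and KO arrays and between 167 and 302 on the other 4. The part of these values in the ribosomal protein changes was not tested.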

How the data were processed

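The deposited series table holds 1 linear MAS5 signal intensity per probe set and array, as the submitters' processing notes give it. The MAS5 version, target and detection calls were not given in the sources used here. RNA was Trizol-extracted total RNA, per the labels' protocols. The 2%-trimmed means of the arrays already lay between 500.3 and 500.4. Signals were scaled to the mean of these, given a floor at the 40th percentile (98.0) and converted to log2; changes that touch the floor are understated. After leaving out 66 controls, 9344 of 12422 probe sets passed the floor on some array and were fitted with limma 3.58.1 in R 4.3.3 (genotype plus stimulation, 2 residual degrees of freedom, eBayes with intensity trend, Benjamini-Hochberg at 0.05 over all). Values within a genotype or state have no test. The p-values measure only the spread between these arrays. Symbols came from the platform annotation (10833 probe sets with 1 symbol, 396 with several, 1193 with none). Members and lists were chosen with earlier results of these data known. Lists take each gene's probe set with the highest mean signal. Named members are those past a test, a fixed group of well-known members and paralogues, the 6 largest rises and falls, and the 4 largest state differences above the floor on every array. Other members named were picked after their values were seen. The code was tested on simulated data. The alternatives were other scalings, floors, a pseudocount of 50, no filter, no trend, other probe set choices, and leaving out arrays.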

Additional observations from a re-analysis of the deposited data

Results flagged for a closer look

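Rps13 probe set 93027_r_at, the only Rps13 probe set with a single symbol, moved in opposite directions between genotypes. Its untreated signals were 189, 512 and 130 in WT, KO and KI cells, and its stimulated ones 131, 207 and 184, which are log2 changes of -0.53, -1.31 and 0.50. The change in KI lay 1.03 above that in WT and 1.81 above that in KO. The difference was not tested, since each change rests on 2 arrays.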

How the results depend on the processing

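Genotype was already the block of the stimulation test. No paired analysis by replicate number was possible because the labels number no replicates. Against 5 member probe sets past the stimulation test, 3 passed with a floor at the 20th percentile, 9 with one at the 60th, 3 with median centring, 3 without the intensity trend, 11 with a pseudocount of 50, 3 with 1 probe set per gene (Rpl10a counts once, and Rps28 is then probe set 98085_f_at), and 0 without the filter on low signals (16 with an unadjusted p under 0.05 in limma, 69 of all 12422 probe sets called). Leaving out 1 array gave 0 in each case (5 to 15 with an unadjusted p under 0.05), and so did leaving out both WT, KO or KI arrays (6, 5 and 15). For KO against WT and for KI against WT, the range without 1 array was 0 to 5. The median change of all tested members, -0.39 in WT, -0.32 in KO and -0.18 in KI cells, became -0.53 and -0.44 in WT and KO with the 20th percentile floor, -0.31 in KI with the 60th, and -0.22, -0.18 and -0.01 with median centring; without letter suffixes it was -0.51 in WT. For bright members median centring gave -0.44, -0.22 and -0.20, and quantile normalization -0.48 in WT. Their distance from all bright probe sets, -0.55, -0.29 and -0.26, was -0.40 in WT with quantile normalization. Genotype differences moved more. Over all members, KO minus WT untreated was -0.10 with median centring and -0.05 with quantile normalization. KI minus WT untreated was -0.35 with the 20th percentile floor and with the pseudocount and 0.0 with median centring. With median centring KI minus WT stimulated was 0.21 and KI minus KO stimulated 0.14. KI minus KO untreated was -0.13 with quantile normalization. Over bright members, KO minus WT untreated was -0.08 with quantile normalization, and with median centring KI minus WT was 0.23 stimulated and reversed to 0.13 untreated. The cause was not tested. The dim members' signals near the floor limit what can be read from them.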
